A study of Mus musculus with 12 samples.

Results

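Early subjective night was compared with early subjective day in the olfactory epithelium, the sheet of sensory neurons and supporting cells in the nose that detects odours. The 4 night pools were taken at circadian time (CT) 12, 16, 36 and 40, when a mouse begins its activity, and the 4 day pools at CT24, 28, 48 and 52, when it begins its rest. These 8 pools were chosen by their time labels alone from 12 in all. Every pool was total RNA mixed from 4 male C57BL/6 mice, of an age that the labels do not give, that had been entrained to light and dark phases of 12 h each and then kept in constant darkness. All groups share that strain, sex and darkness, and no group carries a transgene or received an agent. The phases sampled were thus 12 and 16 h against 0 and 4 h, each once in a first and once in a second circadian cycle. The other 4 pools, late subjective day (CT32 and CT56) and late subjective night (CT20 and CT44), are used only to place a value among all times. Each pool was read on 1 Affymetrix array, and the values are log2 intensities as deposited. A difference is always night minus day on that scale, given with the standard error (SE) of the fit over 8 pools. The pool is the replicate, so the spread between the mice of a pool cannot be seen. In bulk tissue, fewer cells of a type and less RNA per cell cannot be told apart.

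The mammalian circadian clock is a feedback loop of transcription factors. BMAL1 (Arntl) and CLOCK activate the Per and Cry genes, whose products repress them, and they also activate Nr1d1 and Nr1d2, which encode REV-ERB repressors of Arntl. RORs activate the same Arntl sites. DBP, HLF and TEF and the repressors E4BP4 (Nfil3), DEC1 (Bhlhe40), DEC2 (Bhlhe41) and CHRONO (Ciart) carry the rhythm to other genes. In a nocturnal animal the onset of activity comes with a surge of glucocorticoid hormone, which acts on target genes in many tissues.

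Of 19937 genes, none (0%) fell under the adjusted p of 0.05 that served as the limma threshold. Before adjustment, 897 genes (4.5% of all) had p under 0.05, and 275 of them were higher at night (1.38%) and 622 lower (3.12%). In 166 genes all 4 night values lay above all 4 day values (0.833%), and in 368 they lay below (1.85%). An exact rank test reaches at best p = 0.02857 with 4 pools against 4, and 0 genes passed it after adjustment (534 at an unadjusted p under 0.05). The differences were small: 94.7% of genes lay within 0.2 of 0, 31 genes read more than 0.5 lower at night, and 4 read more than 0.5 higher. The median SE was 0.085 and the median 95% interval of a gene extended 0.19 to each side, which limits what 4 pools a side can resolve. After centring each pool on its median, 203 genes were higher and 876 lower at an unadjusted p under 0.05. The count of 897 moved by more than 1.5 times when single pools were left out, to 527 without CT16, 541 without CT24, 420 without CT36, 1381 without CT40, 537 without CT48 and 1869 without CT52.

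The clock loop gave 2 of its 11 measured genes higher at night (18.2%, against 1.38% of all genes) and 1 lower (9.09%, against 3.12%) at an unadjusted p under 0.05. Per1, a light- and hormone-sensitive repressor of the loop (Entrez 18626, chromosome 11), read 9.14, 9.31, 9.30 and 9.11 in the night pools from CT12 to CT40. It read 9.03, 8.97, 9.03 and 8.81 in the day pools from CT24 to CT52. All night pools were above all day pools, and they were also the highest of the 12 pools. The difference was 0.26 ± 0.08 (SE; limma, adjusted p = 0.882), a level 1.20-fold higher at night, with 0.23 in the first cycle and 0.29 in the second. Nr1d1, the REV-ERB alpha repressor (Entrez 217166, chromosome 11), read 9.69, 9.56, 9.79 and 9.42 at night. Its day values were 9.78, 10.23, 9.81 and 10.12. The groups overlapped only at CT36 and CT24, and the difference was -0.37 ± 0.11 (limma, adjusted p = 0.882), with -0.38 and -0.36 in the 2 cycles.

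Bhlhe40 and Bhlhe41, the DEC repressors that compete for E-boxes, were both lower in every night pool than in any day pool. Bhlhe40 (Entrez 20893, chromosome 6) read 8.34, 8.18, 8.34 and 8.39 at night against 8.41, 8.53, 8.56 and 8.60 in the day. Its difference was -0.21 ± 0.07, and -0.21 in each cycle. Bhlhe41 (Entrez 79362, chromosome 6) read 8.21, 8.06, 8.04 and 8.19 at night against 8.24, 8.27, 8.47 and 8.24 in the day, a difference of -0.18 ± 0.08. For both, limma gave an adjusted p of 0.882. The CT52 and CT24 pools set the narrow gap for Bhlhe41, at 8.24 each, just above the highest night value of 8.21.

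Rorb, a receptor that activates Arntl, read 0.22 ± 0.09 higher at night. Arntl itself read 8.24, 8.40, 8.13 and 8.46 at night and 8.69, 8.30, 8.81 and 8.38 in the day, a difference of -0.24 ± 0.12. Its groups overlapped, because the pools at the start of the day (CT24 and CT48) were high and those 4 h later were not. Per2 and Per3, the other period genes, read 0.14 ± 0.07 and 0.14 ± 0.09 higher at night. Clock read -0.10 ± 0.08 and Nr1d2 0.07 ± 0.06. The differences of Cry1 (0.06 ± 0.11), Cry2 (-0.03 ± 0.07) and Rora (0.01 ± 0.08) changed sign under at least 1 other setting.

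For Dbp and Ciart, output genes with a wide daily swing, the difference between early night and early day was within its error. Dbp averaged 8.99 at phase 0 and 9.55 at phase 4, then 9.53 at phase 12 and 8.92 at phase 16. Each group thus held a high and a low phase, and the night minus day difference was -0.05 ± 0.18, with a sign that turned under 5 of the alternative settings. Ciart followed the same order, with phase means of 7.16 and 7.68 in the day and 7.96 and 7.17 at night, for a difference of 0.14 ± 0.21. Arntl and Cry1 had the reverse order within the day, with differences of -0.41 and -0.39 from phase 0 to phase 4. Tef (0.09 ± 0.07), Hlf (-0.07 ± 0.08) and Nfil3 (0.03 ± 0.07) completed the output factors, of which 2 of 7 (28.6%, against 3.12% of all genes) were lower at night at an unadjusted p under 0.05. With phase as a factor, which takes this movement within a group out of the error, 1491 genes reached an unadjusted p under 0.05.

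**Figure D1:**
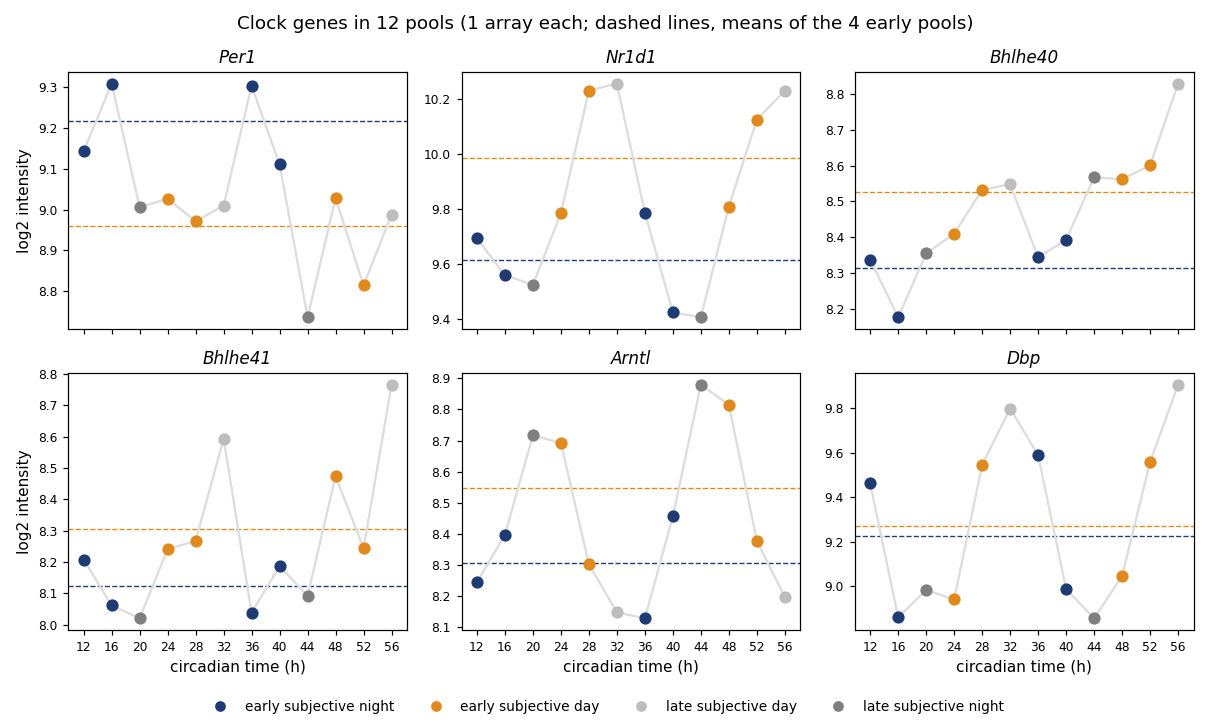
Log2 intensity of 6 clock genes in the 12 pools against circadian time in hours; each point is 1 pool of 4 mice, coloured by group, and dashed lines are the means of the 4 early night and 4 early day pools. The night points of Per1 lie above and those of Bhlhe40 and Bhlhe41 below all day points, while Dbp has a high and a low phase in each group.

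The promoters of Per1, Bhlhe41 and Nr1d1 are shown for their E-boxes, the sites that CLOCK and BMAL1 bind. The sequences are the 250 bases before the start in RefSeq on GRCm38.p6, at chr11:69098699-69098948 (plus strand) for Per1, chr6:145865421-145865670 (minus strand) for Bhlhe41 and chr11:98775378-98775627 (minus strand) for Nr1d1. Capitals mark CACGTG in Bhlhe41, CACGTG and the CCAAT box (CCAAT or ATTGG) in Per1, and AACGTG, the reverse complement of the variant CACGTT, in Nr1d1.
Per1: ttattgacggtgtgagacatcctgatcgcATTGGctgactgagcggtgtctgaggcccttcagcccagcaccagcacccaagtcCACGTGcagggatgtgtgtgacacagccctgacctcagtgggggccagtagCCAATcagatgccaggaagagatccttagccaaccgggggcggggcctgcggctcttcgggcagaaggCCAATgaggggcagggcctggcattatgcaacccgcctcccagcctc
Bhlhe41: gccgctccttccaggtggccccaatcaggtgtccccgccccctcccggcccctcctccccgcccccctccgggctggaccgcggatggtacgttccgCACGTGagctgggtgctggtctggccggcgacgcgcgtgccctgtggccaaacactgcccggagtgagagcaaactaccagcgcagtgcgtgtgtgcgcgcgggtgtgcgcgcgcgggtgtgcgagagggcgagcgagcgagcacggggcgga
Nr1d1: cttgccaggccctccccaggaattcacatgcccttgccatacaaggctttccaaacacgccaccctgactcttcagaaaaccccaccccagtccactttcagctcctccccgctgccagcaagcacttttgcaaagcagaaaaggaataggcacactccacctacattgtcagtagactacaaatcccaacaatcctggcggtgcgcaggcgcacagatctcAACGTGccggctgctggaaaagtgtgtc
CACGTG stood 166 bases before the start in this Per1 window and 153 in Bhlhe41, and AACGTG stood 28 before it in Nr1d1. The table gives Per1 a second start, whose window at chr11:69099902-69100151 held a CCAAT box and neither E-box spelling. Both strands were searched, and the 2 E-box spellings cannot overlap at the same letters. Of 32851 promoter windows of this length, 6.02% held CACGTG and 3.85% held CACGTT or its reverse complement, so a match describes the letters only.

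Most histone genes read lower at the onset of activity than at the onset of rest. Linker histone H1 closes chromatin over the nucleosome, and the core histones H2A, H2B, H3 and H4 form it. Most of these genes lie in clusters and are transcribed during DNA replication. H1f2 (Entrez 50708, chromosome 13), which encodes a linker histone, had the smallest p of all genes. It read 9.74, 9.24, 9.58 and 9.41 in the night pools from CT12 to CT40. Its day values were 10.23, 10.40, 10.25 and 10.70, and the late pools lay between 10.25 and 10.41. The 4 early night pools were therefore the lowest of the 12, with no other pool among them. The difference was -0.90 ± 0.13 (limma, adjusted p = 0.274), a level 1.87-fold lower, with -0.83 in the first cycle and -0.98 in the second. H1f2 passed the threshold when phase was a factor, when all 12 pools shared the error and with array weights, and its adjusted p ranged from 0.00356 to 0.994 over 21 settings.

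Of the 13 measured genes in the list of linker and core histones, 12 read lower at night and 9 (69.2%) did so at an unadjusted p under 0.05, with 3.12% of all genes as the background. The median difference was -0.18, and over 21 settings it lay between -0.23 and -0.16. This list, like the others, was chosen with earlier results of these data known, so its share is descriptive and no separate test. A wider set of 38 histone genes taken by symbol, chosen after the data were seen, had 33 lower and 18 (47.4%) lower at an unadjusted p under 0.05, with no gene higher at that level. In 11 of them the night values lay below all day values, which held for 1.85% of all genes. At night 13.2% of the 38 read higher, against 38.1% of all genes with mean intensities from 8.18 to 9.18. That range holds the median intensities of this set (8.73) and of the 13-gene list (8.82). By class, 6 of 9 H2B genes, 4 of 9 H2A genes, 4 of 8 H1 genes, 2 of 4 H3 genes and 2 of 6 H4 genes were lower at an unadjusted p under 0.05. Of 24 histone genes on chromosome 13, which holds the largest cluster, 23 read lower.

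H1f3, another linker histone (Entrez 14957), read 6.23, 6.33, 6.45 and 6.32 at night against 6.50, 6.64, 7.09 and 6.95 in the day, a difference of -0.47 ± 0.12. H3c15 read -0.58 ± 0.19, but its CT12 value of 8.0 lay inside the day range of 7.75 to 8.42. H2ac4 (-0.42 ± 0.13), H2bc14 (-0.40 ± 0.14), H2bc3 (-0.39 ± 0.11), H2ac15 (-0.35 ± 0.09) and H2aw (-0.32 ± 0.08) followed. H2bc21, an H2B gene that is not counted with the variants named next, read -0.19 ± 0.07 and was lower at an unadjusted p under 0.05. Variants whose transcription does not depend on replication were not gathered as a list, and those named here were mixed. H2az2 (0.02 ± 0.06), H3f3a (0.02 ± 0.08) and Macroh2a2 (-0.04 ± 0.10) had differences within their errors, while H1f10 (-0.16 ± 0.12), H2az1 (-0.13 ± 0.08) and Macroh2a1 (0.12 ± 0.08) lay beyond theirs without reaching an unadjusted p of 0.05. Some clustered genes also differed by less than their errors, such as H2ac8 (-0.02 ± 0.07) and H4c9 (-0.05 ± 0.07). The germ cell linkers H1f6 (-0.02 ± 0.10), H1f8 (0.02 ± 0.08) and H1f7 (0.15 ± 0.10) did not reach that p either.

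In 32 of the 38 histone genes the second cycle gave the more negative difference. The mean of the 13-gene list, relative to the 8 early pools, was -0.11, -0.17, -0.15 and -0.11 in the night pools and 0.05, 0.08, 0.13 and 0.28 in the day pools. It was 0.03 and 0.17 in the late night and 0.19 and 0.27 in the late day. The day pools of the second cycle were thus the highest of the early pools, and the 4 night pools stayed within a narrow range. Of 35 cell cycle genes, none reached an unadjusted p under 0.05 in either direction, and their median difference was -0.0061. That median was -0.08 with the dimmer 50% of genes left out. At night 48.6% of them read higher, against 66.5% of all genes in the second dimmest 25%, where the median level of this list lies.

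**Figure D2:**
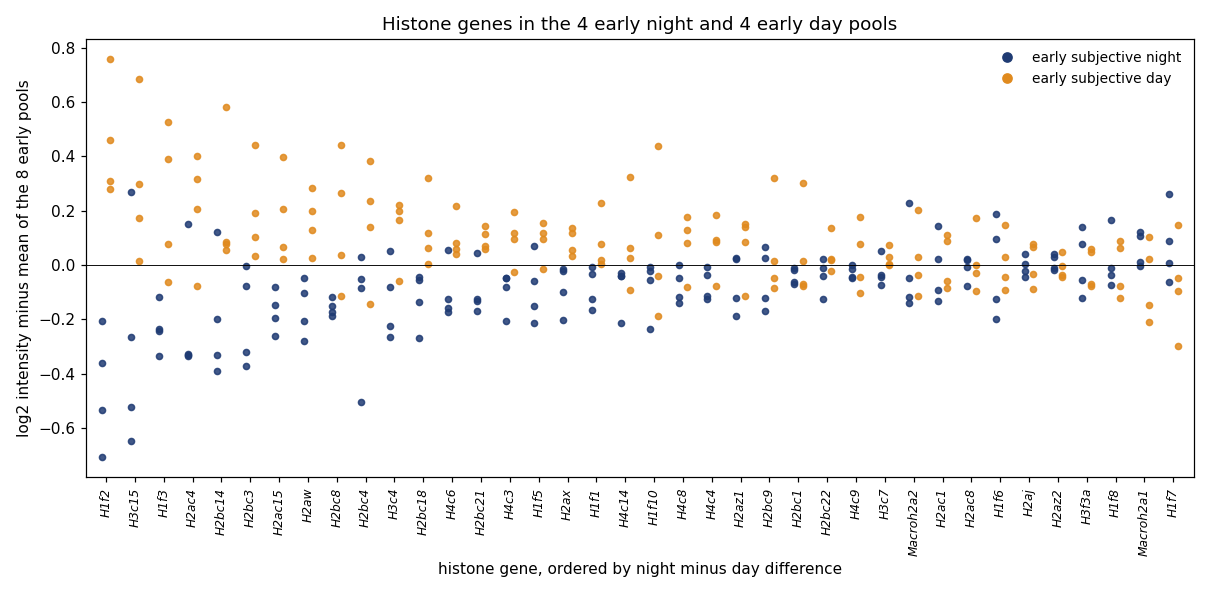
Log2 intensity of 38 histone genes in each of the 8 early pools, relative to the gene's mean over those pools, with genes ordered by the night minus day difference. Each point is 1 pool; night points lie below day points on the left, from H1f2 with a difference of -0.90, and mix with them on the right, where H1f7 is 0.15 higher at night.

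The promoters of the linker histone pair are shown because they carry the same pair of elements. They are the 250 bases before the start at chr13:23738557-23738806 for H1f2 and chr13:23554782-23555031 for H1f3, both on the plus strand of GRCm38.p6 (RefSeq). Capitals mark the H1 box AAACACA, the CCAAT box and, in H1f3, the TATA box TATAAA on either strand.
H1f2: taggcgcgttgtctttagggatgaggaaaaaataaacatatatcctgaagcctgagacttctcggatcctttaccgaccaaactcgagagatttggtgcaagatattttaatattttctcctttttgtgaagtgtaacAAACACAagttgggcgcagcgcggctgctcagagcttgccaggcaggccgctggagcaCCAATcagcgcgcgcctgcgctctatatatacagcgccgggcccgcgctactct
H1f3: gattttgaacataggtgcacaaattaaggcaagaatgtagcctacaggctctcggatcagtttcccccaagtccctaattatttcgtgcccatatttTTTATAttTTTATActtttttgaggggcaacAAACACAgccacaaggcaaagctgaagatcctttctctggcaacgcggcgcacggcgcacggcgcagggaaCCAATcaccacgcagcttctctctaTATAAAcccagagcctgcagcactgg
The H1 box began 112 bases before the start in H1f2 and 122 in H1f3, and the CCAAT box 54 and 51 bases before it. No TATAAA was found in the H1f2 window, but other spellings, such as the tatatata printed there, were not searched. Searched on both strands, AAACACA was present in 9 and a CCAAT box in 25 of the 33 histone genes with a window. The shares over all 32851 windows were 6.25% for AAACACA, 33.85% for CCAAT and 12.4% for TATAAA.

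Arrdc3 and Lyz2 were among the other genes with the smallest p that were lower at night. Arrdc3, an arrestin-like regulator of receptor trafficking (Entrez 105171, chromosome 13), read 10.34, 10.17, 9.94 and 10.30 at night. Its day values were 10.53, 10.88, 10.88 and 10.92, all above the night values, for a difference of -0.61 ± 0.11. Lyz2, the lysozyme of macrophages and glands (Entrez 17105, chromosome 10), read 8.73, 8.89, 9.07 and 9.19 at night and 9.48, 9.80, 9.45 and 9.37 in the day. Its difference was -0.56 ± 0.12, and -0.83 and -0.28 in the 2 cycles. Cxcl5, a chemokine for neutrophils, read -0.50 ± 0.11, with -0.50 in each cycle. Il1rl2, the receptor of interleukin 36, read -0.34 ± 0.07. Lrrc34 (-0.41 ± 0.08), Oit1 (-0.39 ± 0.09), Mpped2 (-0.37 ± 0.08) and the transcriptional repressor Tgif1 (-0.29 ± 0.07) also had night values below all day values. Fam216b and Mybl1, a relative of the MYB factor, each read -0.60 with errors of 0.14 and 0.15.

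The genes higher at night had smaller differences. A3galt2, a glycosyltransferase of isoglobo lipids (Entrez 215493, chromosome 4), read 8.03, 8.05, 8.23 and 7.92 at night. It read 7.73, 7.60, 7.48 and 7.50 in the day, for a difference of 0.48 ± 0.09. Night was above day in every pool, and the 4 night pools were the highest of the 12. Kirrel3, an adhesion molecule of olfactory axons, read 10.01, 9.98, 9.80 and 9.81 at night and 9.61, 9.60, 9.66 and 9.58 in the day (0.29 ± 0.07). Gpr155 (0.31 ± 0.08), the tubulin gene Tubb4a (0.27 ± 0.08), Mss51 (0.27 ± 0.07), Akr1c19 (0.25 ± 0.07), Unc80, part of the sodium leak channel (0.26 ± 0.08), Insl5 (0.23 ± 0.06) and Zfp980 (0.43 ± 0.12) completed the genes with the smallest p. Nrsn1 (0.39 ± 0.16) and Gria2 (0.35 ± 0.20) had night values above all day values, but the CT40 pool, at 7.70 and 6.24, stood well above the other night pools. Of the 24 genes named by p or by separation, Bpifb9a among them, H1f2 alone had an adjusted p under 0.882 in the limma fit over the 8 pools.

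Over all genes, the early night pools were the lowest 4 of the 12 for 183 genes (0.918%) and the highest 4 for 47 (0.236%). The early day pools were the highest 4 for 6 genes (0.0301%) and the lowest 4 for 8 (0.0401%). The night pools thus stood apart from the late pools as well as from the day pools in more genes than the day pools did. Among the named genes, H1f2, H1f3, Arrdc3, Lyz2, Cxcl5, Lrrc34, Jun and Klf6 were in the first set, and A3galt2, Zbtb16, Per1, Nrsn1 and Tubb4a in the second.

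Targets of the glucocorticoid receptor held 3 of 19 genes (15.8%, against 1.38% of all genes) higher at night at an unadjusted p under 0.05 and none lower. Their median difference was 0.07, but 0.03 without CT36 and CT48, 0.04 after quantile normalization and 0.02 with the dimmer 50% of genes left out. By cycle, the median was 0.007 in the first and 0.13 in the second. Zbtb16, a zinc finger factor induced by the hormone (Entrez 235320, chromosome 9), read 8.14, 8.16, 8.34 and 8.11 at night. It read 7.71, 7.92, 7.66 and 7.92 in the day, with no overlap, for a difference of 0.38 ± 0.09, a level 1.30-fold higher. Per1, also a target, is described above with the clock. Tsc22d3, the leucine zipper known as GILZ, read 0.17 ± 0.07, and 0.17 in each cycle. Dusp1, a phosphatase of stress kinases, read 10.74, 11.16, 10.90 and 10.95 at night and 10.93, 10.45, 10.87 and 10.20 in the day (0.33 ± 0.15). Its day pools at phase 4 were low and those at phase 0 were not. Pdk4, a kinase that restrains pyruvate dehydrogenase and another target, read -0.19 ± 0.09, opposite in sign to Tsc22d3. Other targets were Fkbp5 at 0.07 ± 0.06, Klf9 at -0.08 ± 0.09, Sgk1 at 0.14 ± 0.16, Ddit4 at -0.08 ± 0.08 and Mt2 at 0.01 ± 0.06. The 95% interval of Fkbp5 ran from -0.07 to 0.21.

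Immediate early genes, which follow neuronal activity and stress, were split, with 15 of 30 on each side of 0. Jun (-0.27 ± 0.08), Jund (-0.29 ± 0.09), Klf6 (-0.27 ± 0.09) and Ier3 (-0.22 ± 0.09) were lower at night at an unadjusted p under 0.05, and Npas4 (0.16 ± 0.07), a factor induced by neuronal activity, was higher. Jun read 9.75, 9.63, 9.55 and 9.66 at night and 9.76, 9.92, 9.91 and 10.10 in the day. Its groups did not overlap, but CT12 and CT24 were almost level. The 4 lower genes were 13.3% of the list, against 3.12% of all genes. Fos (0.11 ± 0.12), Egr1 (0.03 ± 0.10) and Nr4a1 (0.07 ± 0.12) had differences within their errors, and Arc read 0.16 ± 0.09, with a 95% interval from -0.05 to 0.37.

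Genes of respiratory motile cilia, which mark the ciliated cells that border the sensory sheet and not the olfactory cilia, held 8 of 26 (30.8%, against 3.12% of all genes) lower at night at an unadjusted p under 0.05 and none higher. In all, 22 of 26 read lower, with a median of -0.09 that was -0.15 without CT36 and CT48. The pattern belonged mostly to the first cycle, where the median was -0.20, against 0.02 in the second, a difference not tested for the list itself. Dnah6, a dynein heavy chain of the inner arms, read 6.95 and 7.23 at CT12 and CT16 and 7.60 and 8.0 at CT36 and CT40. Its day values were 8.07, 8.30, 7.71 and 7.88. The first night was thus far below the first day, with a difference of -1.10, and the second night was level with its day, at 0.01. Dnah5, of the outer arms, gave -0.92 and 0.02, Dnah12 -0.81 and 0.09, and Dnah9 -0.42 and -0.01. Tekt1 (-0.14 and -0.20), Rsph4a (-0.21 and -0.23) and Cfap126 (-0.19 and -0.18) read alike in both cycles, and Foxj1, the master factor of motile cilia, gave -0.17 and -0.10. An X-box core (GTTGCC or GGCAAC), the letters that RFX factors bind, was present in 10 of the 23 cilia genes with a promoter window and in 10.4% of all windows.

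The difference between the cycles was tested itself, as an interaction. No gene passed after adjustment (168 at an unadjusted p under 0.05, 0.843%). Reg3g, an antibacterial lectin of mucosa, had the smallest p. It read 11.50 and 11.48 in the first night and between 12.36 and 12.79 in the other 6 early pools, so that the difference went from -1.19 to 0.12 (limma interaction, adjusted p = 0.590). Cdhr3, a cadherin of ciliated cells (-1.02 and 0.14), the glutathione transferase Gsto1 (-1.27 and 0.37) and Ltf, the iron-binding lactoferrin of glands (-1.22 and 0.55), followed with adjusted p = 1.00 in the limma interaction. The CT12 and CT16 pools were the low ones in each of these genes. Aldh3a1, an aldehyde dehydrogenase, showed the same order, with -1.48 in the first cycle and -0.15 in the second. Cell type lists were set beside these genes as means relative to the 8 early pools. The cilia list was lowest in the same pools, with -0.12, -0.10, -0.03 and -0.0036 from CT12 to CT40 and 0.11, 0.19, -0.07 and 0.03 from CT24 to CT52. The gland list read -0.37, -0.12, 0.01 and -0.19 at night and 0.46, 0.21, -0.18 and 0.18 in the day, so that CT40 and CT48 lay below CT16. The macrophage list read -0.11, -0.05, 0.03 and -0.01 at night and -0.07, 0.26, -0.07 and 0.02 in the day, with CT24 and CT48 below CT16. The part of tissue composition in these differences was not tested.

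**Figure D3:**
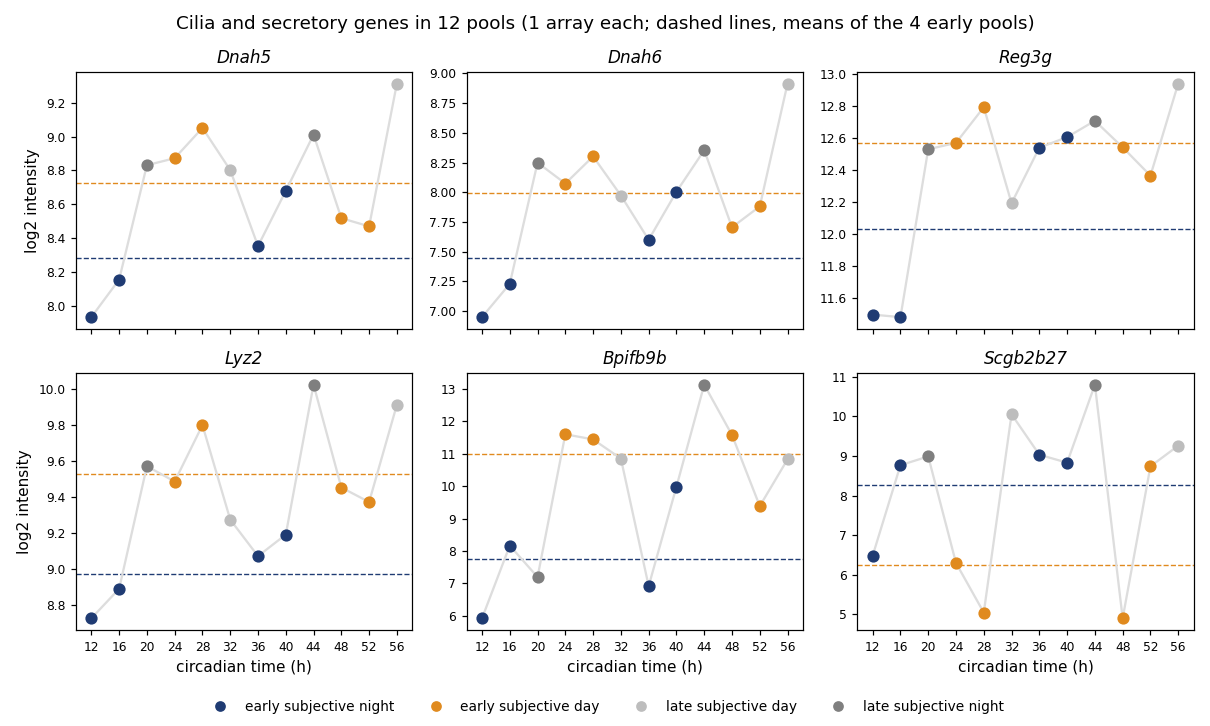
Log2 intensity of 6 cilia and secretory genes in the 12 pools against circadian time in hours; each point is 1 pool of 4 mice, coloured by group, and dashed lines are the means of the 4 early night and 4 early day pools. Dnah5, Dnah6 and Reg3g are low at CT12 and CT16 and not at CT36 and CT40, while Bpifb9b and Scgb2b27 spread over several log2 units within a group.

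The largest differences of all, in 6 genes over 1, belonged to genes of secretions and to a receptor with wide spread between pools. Bpifb9b, a secreted protein of the lipid-binding BPI fold family, read 5.93, 8.17, 6.92 and 9.98 at night and 11.60, 11.44, 11.57 and 9.38 in the day. Its CT40 value exceeded that of CT52, and the difference was -3.25 ± 0.74. Bpifb9a read 7.18, 7.43, 7.42 and 8.99 at night against 10.63, 10.31, 10.69 and 8.36 in the day (-2.24 ± 0.50). CT40 and CT52 again stood apart from their groups. Mup5, a major urinary protein, read -1.82 ± 0.79, but its CT48 value of 6.00 was the lowest of the 8. Olfr727 read -1.07 ± 0.48, carried by CT28 at 8.23 and CT48 at 6.90, with the other 6 pools between 5.35 and 5.64. Scgb2b27 and Scgb1b27, paired secretoglobins of glands, read 2.04 ± 0.78 and 1.05 ± 0.42 higher at night. In that order, CT52, at 8.74 and 10.17, was near the night pools CT16, CT36 and CT40. The night pool CT12, at 6.48 and 8.82, was near the day pool CT24, at 6.29 and 8.56. For all 6, limma gave an adjusted p of 0.882. The odorant-binding protein genes Obp1a (-0.51 ± 0.75) and Obp2a (0.07 ± 0.61) and the lipocalin gene Lcn11 (-0.07 ± 0.74) had errors as wide, with a 95% interval from -2.15 to 1.12 for Obp1a, while the gland genes Aqp5 (-0.04 ± 0.08), Muc5b (0.02 ± 0.09) and Sox10 (-0.01 ± 0.06) were close to 0. The gland list as a whole was split about 0, with 14 of 26 higher (53.8%) and a median of 0.0057. Its median level lies in the brightest 25% of all genes, where 25.2% read higher and the median was -0.05. Without CT36 and CT48 the list median was -0.06, so its sign was not kept. Of these 26, 5 (19.2%, against 3.12% of all genes) were lower at night at an unadjusted p under 0.05 (Lyz2, Bpifb9a, Bpifb9b, Bpifb1 and Mup5).

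Lists of bright genes are read against the brightest 25% of all genes, in which 25.2% read higher at night and the median was -0.05. Cholesterol synthesis was near that background, with 5 of 19 higher (26.3%) and a median of -0.06 (-0.04 after quantile normalization). Its lowest members were Msmo1 at -0.32 ± 0.10 and Sqle, squalene epoxidase, at -0.15 ± 0.06. Sqle read 9.64, 9.54, 9.53 and 9.55 at night and 9.76, 9.68, 9.70 and 9.70 in the day, so its groups did not overlap. Heat shock chaperones had 2 of 17 higher (11.8%) with a median of -0.08 (-0.05 without CT36 and CT48), and among them Hspb8 alone, which encodes a small heat shock protein, reached an unadjusted p under 0.05 (-0.22 ± 0.08). In the unfolded protein response, 8 of 25 were higher (32%), and the median of -0.04 was -0.0089 without CT36 and CT48. Edem1 (-0.27 ± 0.07) and Ddit3, the factor CHOP (-0.36 ± 0.11), were its members lower at an unadjusted p under 0.05. Oxidative phosphorylation had 13 of 74 higher (17.6%) with a median of -0.05, which was -0.02 after quantile normalization and also without CT36 and CT48, and none of these genes reached an unadjusted p under 0.05. Glycolysis ran the other way, with 12 of 18 higher (66.7%) and a median of 0.03. That median was 0.00083 in the first cycle and 0.02 in the second. It was 0.00056 after median centring and -0.02 with hours in darkness as a covariate, so its sign was not kept. Gpx2, a glutathione peroxidase of epithelia, read -0.35 ± 0.10. Usp2, a deubiquitinase under clock control, read 0.25 ± 0.10 higher.

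The sign of the difference followed the level of a gene. In the dimmest 25% of genes, below a mean level of 7.11, the median difference was 0.05 and 74.1% read higher at night. In the next 3 bins of that size, ordered by level, the medians were 0.05, -0.03 and -0.05, and 66.5%, 38.1% and 25.2% read higher. After quantile normalization the medians were 0.02, 0.02, -0.0075 and -0.0077. The first principal component of the 8 pools held 51.8% of the variance, with CT36 (20.8) and CT48 (-25.7) at its ends. Dim lists were near or below the 74.1% of the dimmest genes: 123 of 163 vomeronasal receptor genes (75.5%) and 197 of 300 microRNA hairpins (65.7%) read higher at night, with medians of 0.05 and 0.04. Collagens read higher in 39 of 44 cases (88.6%) with a median of 0.11, and skeletal muscle genes in 20 of 22 (90.9%) with a median of 0.09. These shares were above those of the bins that hold their median levels. The bins were the second brightest 25% for collagens (38.1%) and the second dimmest for muscle genes (66.5%). Without CT36 and CT48 the medians were -0.02 for the collagens, -0.02 for the microRNA hairpins, 0.02 for the vomeronasal receptors and 0.01 for the muscle genes. Small nucleolar RNAs read lower at night in 49 of 51 cases with a median of -0.22, but their medians were -0.0088 in the first cycle and -0.46 in the second. With hours in darkness as a covariate their median was -0.04. In each cycle the day pools were taken 12 h after the night pools of the same cycle.

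**Figure D4:**
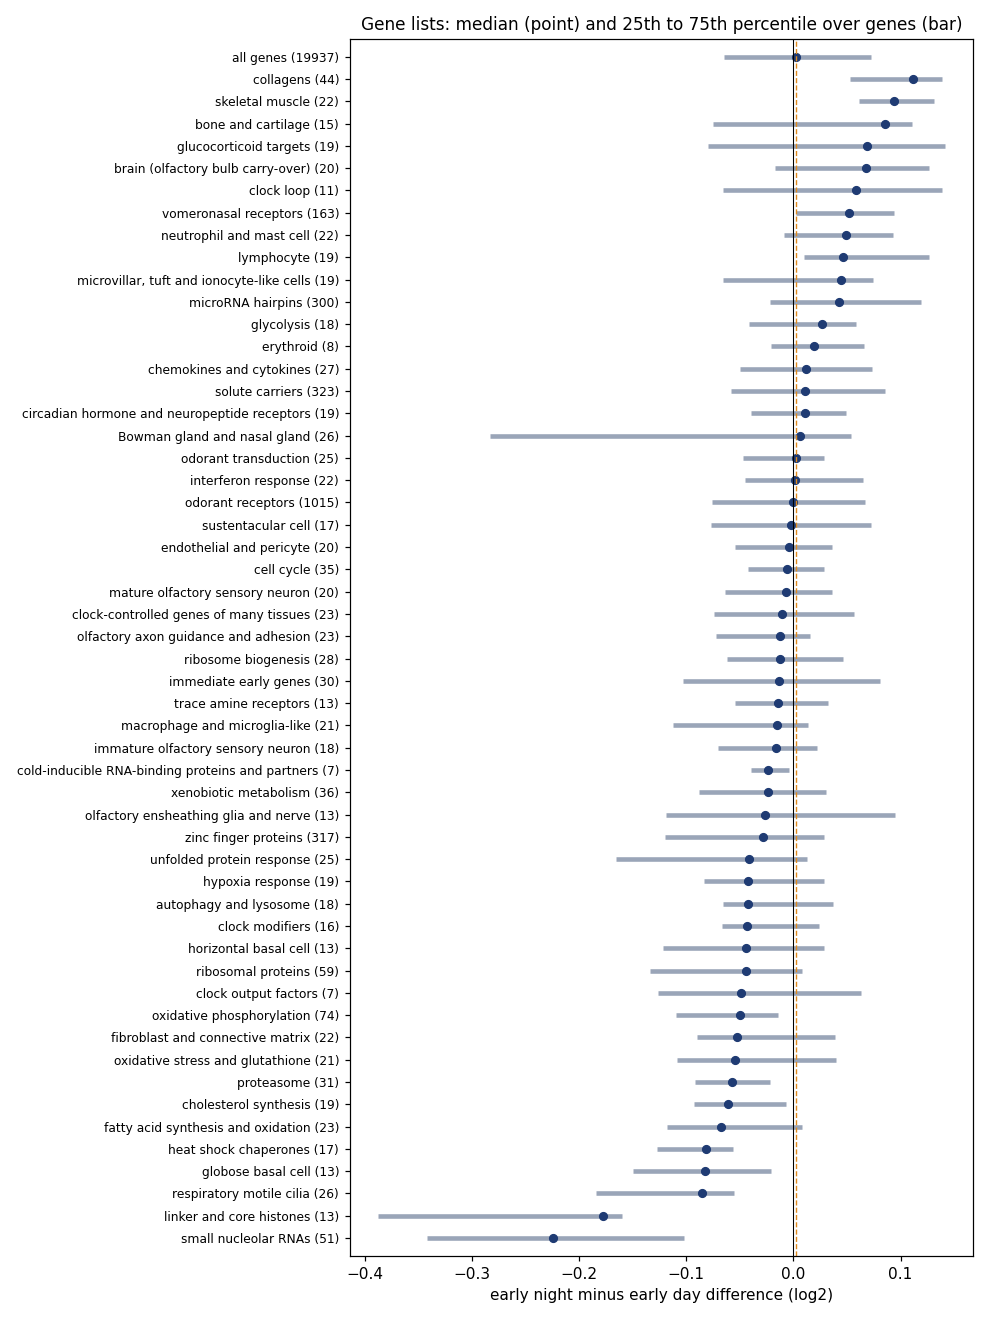
Night minus day difference (log2) of the gene lists, with the number of measured genes in parentheses; points are medians over genes, bars run from the 25th to the 75th percentile, and the dashed line is the median of all 19937 genes. The linker and core histones and the small nucleolar RNAs lie lowest, at -0.18 and -0.22, and most lists lie within 0.1 of 0.

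The lists of olfactory sensory neuron genes had no shift of their median in the same direction in both cycles. The defining markers of these neurons were present in all 8 pools. Omp, the olfactory marker protein gene, read between 12.79 and 13.08, Gnal, the olfactory G protein, between 12.63 and 12.92, and Cnga2, the cyclic nucleotide-gated channel, between 12.44 and 12.84. Their differences were 0.06 ± 0.08, 0.08 ± 0.07 and 0.10 ± 0.08. Of 25 genes of odorant transduction, 20 of mature neurons and 18 of immature neurons, none reached an unadjusted p under 0.05, with medians of 0.0022, -0.0073 and -0.02. In that order, the medians were 0.04, 0.04 and 0.04 in the first cycle and -0.05, -0.07 and -0.06 in the second. With hours in darkness as a covariate they were -0.04, -0.07 and -0.07. The shares higher at night were 52%, 40% and 38.9%, against 25.2% of the brightest 25% of all genes. Cyp2g1, which marks sustentacular cells, read 0.02 ± 0.06, and Gap43, of immature neurons, 0.07 ± 0.09. Among basal cells, Krt5 (-0.22 ± 0.11), Krt14 (-0.12 ± 0.09) and Neurog1 (-0.02 ± 0.09) did not separate. The globose basal list had 10 of 13 lower and 23.1% higher, against 38.1% higher in the second brightest 25% of genes, where its median level lies. Sox2, a stem cell factor (-0.28 ± 0.09), and Ezh2, a histone methyltransferase (-0.16 ± 0.07), were lower at an unadjusted p under 0.05. These 2 were 15.4% of the list, against 3.12% of all genes. The list median was -0.02 in the first cycle and -0.11 in the second.

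Odorant receptor genes lay on both sides of 0, with 506 of 1015 higher at night (49.9%) and a median of -0.00059. Their median level was 7.12. Of all genes with mean levels from 7.11 to 8.18, 66.5% read higher, with a median of 0.05. Among the genes dimmer than these, 74.1% did. The share of receptors higher at night was thus below that of genes of like level. At an unadjusted p under 0.05, 11 were higher and 28 lower (2.76%, near the 3.12% of all genes). The receptors with the smallest p were Olfr1467 (-0.44 ± 0.10), Olfr143 (-0.37 ± 0.09) and Olfr591 (-0.36 ± 0.09). Olfr143 read 8.60, 8.49, 8.29 and 8.65 at night and 9.04, 8.79, 8.91 and 8.77 in the day, without overlap. In the first cycle the median receptor read 0.06 higher at night and in the second 0.06 lower. Of trace amine receptors, 5 of 13 read higher, with a median of -0.01.

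Other cell types gave few genes. Of 22 fibroblast and matrix genes, Lox, the collagen cross-linking enzyme, read 7.28, 7.53, 7.41 and 7.56 at night against 7.71, 7.77, 7.81 and 7.75 in the day (-0.32 ± 0.08). Lum, the proteoglycan lumican, read -0.41 ± 0.10 with no overlap. S100a8, a calcium-binding protein of neutrophils, read -0.34 ± 0.11. The neutrophil and mast cell list had 16 of 22 higher (72.7%), near the 74.1% of the dimmest genes, and its median of 0.05 was -0.04 without CT36 and CT48. Npy, a peptide of olfactory ensheathing glia, read 0.25 ± 0.08, and Erbb3, a glial receptor, -0.21 ± 0.08. None of the endothelial, lymphocyte, erythroid, skeletal muscle or brain list members reached an unadjusted p under 0.05.

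The 2 cycles share no pool and give 2 separate readings of the comparison. The differences had the same sign in both for 66.3% of the 19937 genes, and their Pearson correlation across genes, which are not independent replicates, was 0.39. The sign also followed the level of a gene, as given above, and the part of that trend in these 2 values was not tested. Of 88 genes that differed by over 0.5 in the first cycle, 50 had the same sign in the second and 8 differed by over 0.5 in both. Those 8 were H1f2, Cxcl5, Bpifb9a, Bpifb9b, Mup5 and Olfr727, lower at night, and Scgb1b27 and Scgb2b27, higher. In the direction of the first cycle, the median of the 88 genes was 0.70 in the first cycle and 0.03 in the second. H1f2 and Cxcl5 were the members of this set whose night and day values did not overlap.

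**Figure D5:**
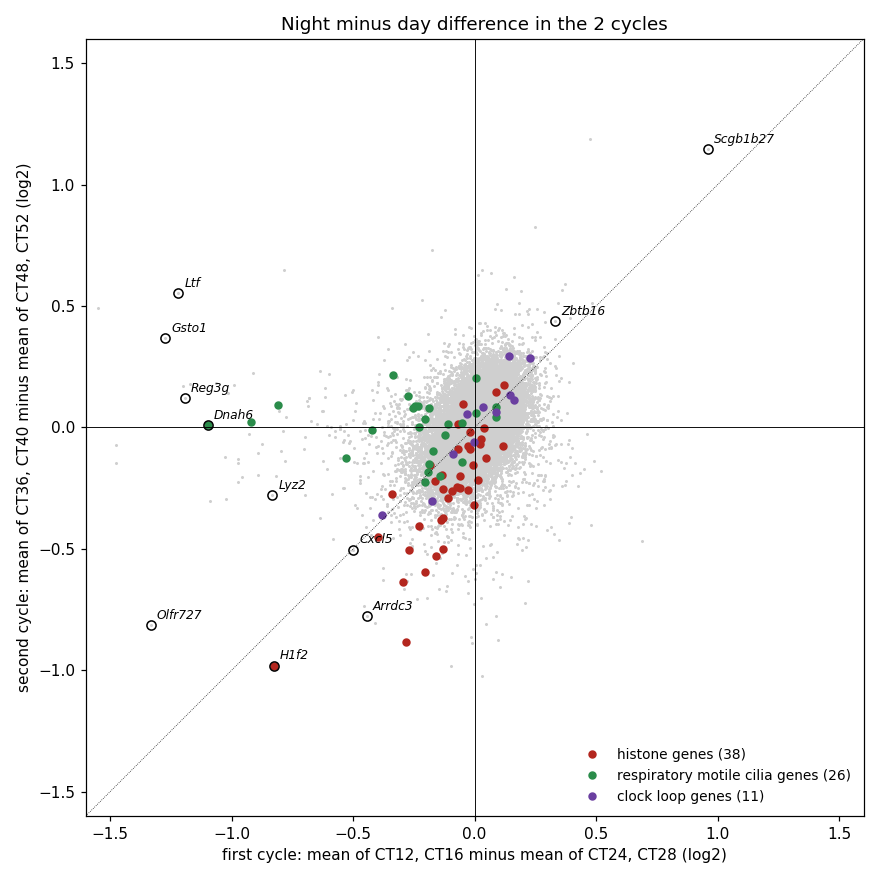
Night minus day difference (log2) in the first cycle against that in the second for 19937 genes, each a point, with histone, motile cilia and clock loop genes in colour and the dotted line at equal differences; 5 genes lie outside the axes. Histone genes lie mostly below 0 on both axes, while motile cilia genes and Reg3g, Ltf and Gsto1 lie left of 0 and near or above 0 in the second cycle.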

How the data were processed

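The deposited table holds log2 intensities, 1 value per probe and pool, made by the authors from Affymetrix arrays. The submitters' processing notes name affy. Its version, the background correction and the normalization are not given in the sources here. The log2 scale was read from the range of the values. Pool medians lay between 7.81 and 7.92, and each of the 8 pools correlated with the others at a mean r of 0.983 to 0.990 over probes. Precision is set by the number of arrays.

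Of 34760 probes, the platform annotation gives 21640 a single symbol, 1321 several, and 11799 none here. Symbols were looked up by Entrez ID in RefSeq's gene table of GRCm38.p6 (21553 matched). Genes with several probes (954) took the probe with the highest mean, leaving 19937 genes, and the 13120 other probes were fitted apart (0 past the threshold, 526 at an unadjusted p under 0.05).

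Night minus day was fitted with limma 3.58.1 in R 4.3.3 (lmFit and eBayes, two-sided, 6 residual degrees of freedom, Benjamini-Hochberg over all genes). The threshold was an adjusted p of 0.05. The difference between cycles was an interaction in the same pools, and the fit was tested on simulated data. Nothing in the labels says how the mice of separate pools were housed, so p-values measure only the spread between these pools. The members and the 53 gene lists were chosen with earlier results of these data known. Named genes were, in each direction, the 10 smallest p (predicted genes, receptors and small RNAs left out), the 5 largest differences without overlap, all clock and output genes, up to 3 per list and the 5 smallest interaction p. Others were named after their values were seen, within the lists described or for differences over 1. Figures and motif searches used Python 3.11.15, pandas 2.3.3, numpy 2.4.6 and matplotlib 3.10.9. Alternatives were other fits, variance priors, weights, normalizations, filters, probe rules and pools left out.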

Additional observations from a re-analysis of the deposited data

Results flagged for a closer look

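Single pools stood apart within a group of 4 in 11 of 190 group values screened, where chance alone gives about 1 in 20, or 9.5. The figure given for each is the gap to the nearest other pool as a share of the group's range. Among the day pools, CT52 was lowest for the clock loop mean (0.862), for Rora (0.975) and for Bpifb9a (0.839). CT28 was lowest for the oxidative phosphorylation mean (0.875) and for Nfil3 (0.909). CT48 was lowest for the cell cycle mean (0.888) and highest for Bhlhe41 (0.885), and CT24 was lowest for Arrdc3 (0.892). Among the night pools, CT36 was highest for the horizontal basal cell mean (0.945), and CT40 was highest for Bpifb9a (0.860) and Gria2 (0.912).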

How the results depend on the processing

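The 24 genes named by p or by separation had the same direction in all of the 19 to 21 settings that measured them, and so did 177 of all 191 genes named by rule. The 24 were picked for their separation in these same pools, and several settings change the error but not the difference. Their constant direction was thus largely fixed in advance and is no separate evidence. Of 53 gene lists, 16 kept the sign of their median in every setting run, 13 of them lower at night and 3 higher. The number of genes past the threshold was 1 with phase as a factor and 1 with all 12 pools (H1f2 in both), 2 with array weights (H1f2 and Bpifb9a), and 0 under the other settings run. Array weights ranged from 0.346 for CT52 to 6.28 for CT24. The genes with an unadjusted p under 0.05 numbered 1491 with phase as a factor, 6029 with array weights, 534 by the rank test and, chosen after the data were seen, 455 without CT36 and CT48. Leaving out 1 pool at a time gave 420 to 1869.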
